A study of Mus musculus with 14 samples.

Results

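N6-methyladenosine (m6A) peaks of wild-type (WT) hepatocytes were set against the abundance of the same transcripts. The m6A peaks came from 1 immunoprecipitated (IP) library and the abundances, in FPKM, fragments per kilobase of transcript scaled to library size, from its 1 input library, which is fragmented RNA sequenced without the antibody. Of 22481 gene symbols in the input table, 9442 reached the minimum of 1 FPKM and were kept, whether or not they had a peak. The hepatocytes came from male C57BL/6 mice of 8 weeks by collagenase perfusion. The methods write the WT genotype as Alb-cre Mettl3-/-, which is read here as albumin-Cre, active in hepatocytes, without a floxed allele, and cKO mice carried albumin-Cre with Mettl3 fl/fl; littermates without the homozygous deletion served as controls. The cKO hepatocyte pair of IP and input and WT liver pairs 2 and 3 are used below for reference. With 1 library of each kind no test over samples was possible, so shares are given with 95% Wilson intervals, which cover counting error only.

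The m6A mark is laid on adenosines of nascent mRNA by a complex of METTL3 and METTL14 with WTAP and further subunits, and is read by YTH-domain proteins that act on mRNA decay, splicing and translation. It favours a short motif with GGAC at its core, long exons and the neighbourhood of stop codons, and short exons close to splice junctions are known to carry little of it. A peak is a stretch where IP reads exceed input reads, so calling one needs reads, and abundance sets how many reads a transcript offers.

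GGAC was searched on the mRNA strand alone, and the following windows show it in the strongest peak of each named gene that held a GGAC within 1 exon. They were chosen from the genes with the most peaks and from liver enzymes and albumin. Since each was picked for holding GGAC, they do not show how often peaks contain it. Gys2 was searched as well, and none of its 3 peaks gave such a window. GGAC stands in capitals, each sequence runs 5′ to 3′ in the sense of the mRNA, and the bases are those of GRCm38.
Cps1: ggaagtagagatGGACgctgttggcaaa
Egfr: tctagaatcccaGGACcaactatggcag
Iqgap2: agaggaacctgcGGACgctggagcagac
Macf1: tggctttgccctGGACctatctcagcat
Zbtb20: tgaggaaaactgGGACagaccatcttga
Fasn: ggcacacacaatGGACccccagcttcgg
Ass1: agcagactacacGGACtccagggacctg
Alb: tgattttgttgaGGACcaggaagtgtgc
The Cps1 window lies in coding sequence of exon 29 of 38 (chr1:67209637-67209664, plus strand), under a peak of 78 bases with a 101-fold enrichment of IP over input. That of Egfr lies in the 3′ UTR in exon 28 of 28 (chr11:16911896-16911923, plus strand; 233-fold), and that of Zbtb20 in the 3′ UTR in exon 15 of 15 (chr16:43640947-43640974, plus strand; 253-fold). Coding windows were those of Iqgap2 in exon 32 of 36 (chr13:95635519-95635546, minus strand; 274-fold), Macf1 in exon 49 of 98 (chr4:123450020-123450047, minus strand; 142-fold), Fasn in exon 3 of 43 (chr11:120822118-120822145, minus strand; 102-fold) and Alb in exon 8 of 15 (chr5:90468630-90468657, plus strand; 7.06-fold). The Ass1 window lies in the 5′ UTR in exon 2 of 16 (chr2:31474728-31474755, plus strand; 74.5-fold).

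Abundant transcripts for which no peak was listed held the same letters. The windows below show the GGAC nearest the stop codon of 4 of them.
Hpx: ggccctgtgtttGGACaagtctcttggc
Eef1a1: catcaaagctgtGGACaagaaggctgct
Actb: gtgcttctaggcGGACtgttactgagct
Vtn: aacccggcgagtGGACtctgtgaatcct
They lie in coding sequence for Hpx (chr7:105591829-105591856, minus strand), Eef1a1 (chr9:78478785-78478812, minus strand) and Vtn (chr11:78502163-78502190, plus strand), and in the 3′ UTR for Actb (chr5:142903780-142903807, minus strand). The longest annotated transcripts held 10 GGAC in Hpx, 6 in Eef1a1, 7 in Actb and 10 in Vtn, against 19 in Cps1 and 4 in Alb, which did have peaks. Over the whole set, 64.5% of 13614 windows of 200 bases centred on peaks held a GGAC (95% Wilson interval 63.7 to 65.3), against 53.9% of the 166872 consecutive windows of that length into which the transcripts of all genes at 1 FPKM or more were divided. The share was 53.2% in such windows of transcripts with a peak and 55.8% in those of transcripts without one. The longer GGACT, which contains GGAC, was in 25.1% of peak-centred windows and 19.2% of all windows. From the weakest 20% of peaks (2.00- to 12-fold enrichment) to the strongest (71.9-fold and above), the GGAC share went from 62.6% to 66.0%, with intervals that overlap at 64.2 to 64.4. The letters were common in all windows, and a match is a description and not a methylated site.

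The list for WT hepatocytes held 17175 peaks with 7450 gene names, of which 7301 were in the input table. At 1 FPKM or more, 6025 of 9442 genes (63.8%, interval 62.8 to 64.8) had at least 1 peak, 14965 peaks in all, and 3417 (36.2%) had none. The minimum itself fell in a dense stretch of values: just above it stood Crtc1 (1 FPKM) and Dis3 (1.001 FPKM) with no peak, and just below it Ndufaf2 (0.9999 FPKM) with 2 peaks and Hccs (0.9998 FPKM) with none. A gene near 1 FPKM rested on a median of 14 estimated fragments, and the whole WT input on 1737350 estimated fragments over genes, against 3564638 in the cKO input; the number of IP reads was not used here. Mettl3, the catalytic subunit and the deleted gene, stood at 3.44 FPKM in the WT hepatocyte input against 2.91 FPKM in the cKO hepatocyte input, with 8.43 and 10.6 FPKM in the WT liver inputs, so its abundance did little to set the hepatocyte libraries apart. The paper states that its floxed allele deletes some exons of Mettl3, whereas these FPKM are of the gene as a whole. How far that enters the values was not tested. The paper also reports less METTL3 protein and a lower m6A level of mRNA in cKO liver. No peak was listed in Mettl3 in either hepatocyte library.

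The share of genes with a peak went up with abundance in this pair of libraries. It was highest in the highest decile, which was not so in the reference pairs (values below). In the lowest decile of expression (1.00 to 1.35 FPKM) 46.0% of genes had a peak (42.9 to 49.2), and the following deciles had 53.4%, 56.5%, 60.2%, 62.7%, 69.2%, 71.2%, 70.8% and 73.8%, up to 74.4% (71.5 to 77.1) in the highest (16.9 to 31007 FPKM). Most of that gain had been made by the sixth decile, and the intervals of the 4 highest deciles overlap. The mean number of peaks per gene went from 0.800 in the lowest decile to 2.55 in the highest, and peaks per kilobase of mRNA from 0.212 to 0.985, while the median mRNA length was 3158 bases in the lowest and 2045 bases in the highest. Genes with a peak had a median of 4.23 FPKM and genes without one 2.83 FPKM, a ratio of 1.5, and the middle ranges overlapped widely (2.29 to 8.36 FPKM with a peak, 1.68 to 5.72 FPKM without). Across all 9442 genes of this pair of libraries, Spearman's rho of FPKM with the number of peaks was 0.246, given as a description because genes of 1 library are no replicates.

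**Figure D1:**
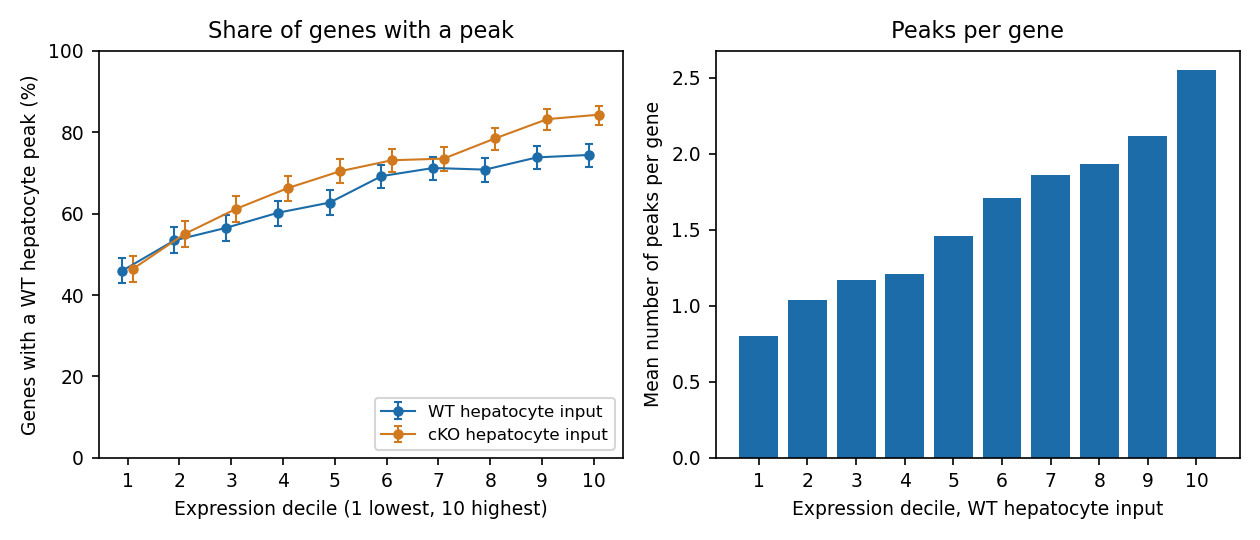
Left, percentage of genes with a WT hepatocyte peak in each expression decile (1 lowest, 10 highest) with 95% Wilson bars, deciles taken from the WT hepatocyte input or from the cKO hepatocyte input. Right, mean number of peaks per gene by decile of the WT input; the share goes from 46.0% to 74.4% with the WT input and from 46.4% to 84.3% with the cKO input, and the mean from 0.800 to 2.55 peaks.

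Enrichment went the other way, but it is a ratio to the same input that gives the FPKM, so the measures are not independent. The median fold enrichment of peaks was 34.5 in the lowest decile and 13.5 in the highest, and across 5975 genes with a peak the strongest enrichment had a Spearman's rho of -0.195 with FPKM. With peaks of at least 20-fold enrichment counted alone, the share of genes with a peak was 40.5% in the lowest decile and 42.2% in the highest, so the climb over deciles was nearly gone. The climb also depended on the range of abundance: among genes at 10 FPKM or more the share was 74.4% in their lowest decile and 78.0% in their highest, and the ratio of median FPKM between genes with and without a peak was 1.03. The 10 strongest peaks show the range of abundance: Rbmx, a splicing regulator, had a peak of 10829-fold at 1.38 FPKM, Rpl17 of the large ribosomal subunit 8559-fold at 11 FPKM, the nuclear import receptor Tnpo2 3196-fold at 2.35 FPKM, and Rdx, which links actin to the membrane, 2537-fold at 11.3 FPKM. Below these came the nucleolar genes Gnl3 (1881-fold) and Ncl (1775-fold), then A630007B06Rik (1420-fold), Tmem38b (1230-fold), Zc3h13 (1104-fold) and Rabgef1 (1092-fold). Of these 10 peaks the Tmem38b one lay in a 3′ UTR and the others in coding sequence.

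Genes with a peak had longer mRNAs than genes without one. The median length of the longest annotated transcript was 3466 bases in genes with a peak and 2534 bases in genes without, with 10 against 8 exons, a longest exon of 1644 against 1136 bases, a coding sequence of 1509 against 1104 bases and a 3′ UTR of 1281 against 863 bases. GGAC was found 14.0 times per transcript with a peak and 11 times without, but 4.08 against 4.28 times per kilobase, so the higher count went with length and not with density. Of the 1867 genes with the shortest mRNAs (258 to 1746 bases), which are 1 of 5 length classes of like size, 46.6% had a peak, and of the 1866 with the longest (5158 bases and more) 80.2%. Both trends held inside each other: among the shortest mRNAs the share went from 27.7% in the lowest of 5 expression classes to 57.8% in the highest, and among the longest from 66.8% to 90.4%. A long transcript of low abundance thus had a peak more often than a short one of high abundance (66.8%, 62.0 to 71.2, against 57.8%, 53.8 to 61.8). Across the 9331 genes with an annotated transcript, 64.0% of which had a peak, the number of peaks had a Spearman's rho of 0.336 with mRNA length, 0.322 with coding length, 0.254 with exon number and -0.0698 with GGAC per kilobase.

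**Figure D2:**
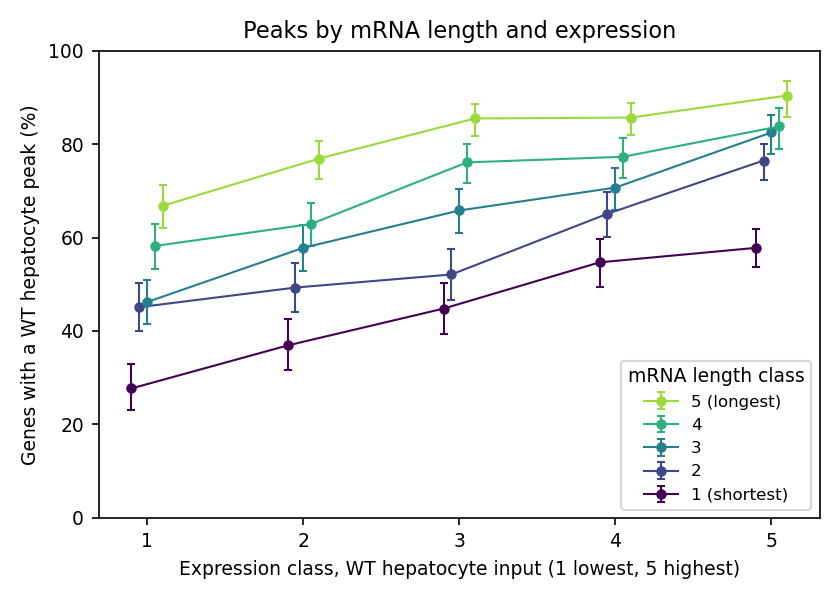
Percentage of genes with a WT hepatocyte peak (95% Wilson bars) by expression class of the WT hepatocyte input (5 classes of like size), 1 line for each of 5 classes of mRNA length. In each length class the share is highest in the highest expression class, with 90.4% for the longest mRNAs and 57.8% for the shortest.

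Of the 13934 peaks that could be placed on the longest transcript, 70.1% lay in coding sequence, 25.9% in 3′ UTRs and 3.99% in 5′ UTRs. The coding share was 67.8% in the lowest decile and 75.3% in the highest. Peak edges followed gene structure: 48.8% of peaks began at an exon border, 49.0% ended at one, and 31.7% spanned 1 exon from border to border. An enriched stretch over several exons could thus be listed as several peaks. Exon number also goes with mRNA length, and the parts of both were not told apart. The share of genes with a peak was 47.6% for genes of 1 exon, 57.4% for 5 to 9 exons and 77.4% for 40 or more, and 35 of the 195 genes in the last class had 10 or more peaks.

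Among genes at 100 FPKM or more, 88 of 114 had a peak and 26 did not (22.8%, 16.1 to 31.3). Of those 26, 5 were encoded in mitochondrial DNA, which is transcribed inside mitochondria, and none of the 5 mitochondrial genes at 1 FPKM or more had a peak. The other 21 were nuclear genes, out of 109 nuclear genes at this level. Genes of secreted liver proteins were Hpx, which binds haem (1388 FPKM), Vtn, the adhesive plasma protein vitronectin (417 FPKM), F2, prothrombin (365 FPKM), the apolipoproteins Apoc3 (229 FPKM) and Apoc4 (120 FPKM), and Serpinf2, the plasmin inhibitor (183 FPKM). Genes used in most cells were Ftl1, the ferritin light chain (669 FPKM), the translation factor Eef1a1 (588 FPKM), Actb, cytoplasmic actin (441 FPKM), the histone H3f3b (159 FPKM), and the ribosomal proteins Rplp1 (154 FPKM) and Rps29 (101 FPKM). Immune and lysosomal genes were H2-K1 (283 FPKM), Cd74 (194 FPKM), Lyz2 (115 FPKM), Ctsd (105 FPKM) and Cd5l (103 FPKM), and the remaining ones were Tmsb4x (218 FPKM), Gm10222 (372 FPKM) and the early response genes Fos (150 FPKM) and Zfp36 (117 FPKM). Their mRNAs were not long, with a median of 1682 bases and a maximum of 2790, against a median of 1998 bases and a maximum of 13934 in the 88 genes with a peak. Reads of H2-K1, the ribosomal proteins, Ftl1, Gm10222 and other genes with near copies can be split between copies, so both their abundance and their lack of a peak are uncertain.

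The abundant genes without a WT peak ranged between 2 arrangements when the cKO hepatocyte pair was set beside them, and clear examples of each follow. Hpx (1388 FPKM in the WT input, 1945 FPKM in the cKO input), Ftl1 (669 and 718 FPKM), Eef1a1 (588 and 717 FPKM), Vtn (417 and 852 FPKM) and F2 (365 and 549 FPKM) were abundant in both inputs and had no peak in either IP library. In contrast, Cd74, the invariant chain of antigen presentation, had 194 FPKM in the WT input against 9.79 FPKM in the cKO input, and 0 peaks in the WT list against 5 in the cKO list. The macrophage genes Cd5l (103 against 4.03 FPKM, 0 against 4 peaks) and Lyz2 (115 against 4.21 FPKM, 0 against 1 peak) had the same arrangement, as did Tmsb4x (218 against 14.9 FPKM, 0 against 2 peaks). Others lay between, such as Actb (441 against 173 FPKM, no peak in either list) and Ctsd (105 against 63.8 FPKM, 0 against 2 peaks). In all, 6 of the 21 nuclear genes without a WT peak had a cKO peak, against 40 of the 88 genes with a WT peak, so a cKO peak was no more frequent among them. By abundance, 11 of the 21 were higher in the WT input than in the cKO input, against 8 of the 88 genes with a WT peak.

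**Figure D3:**
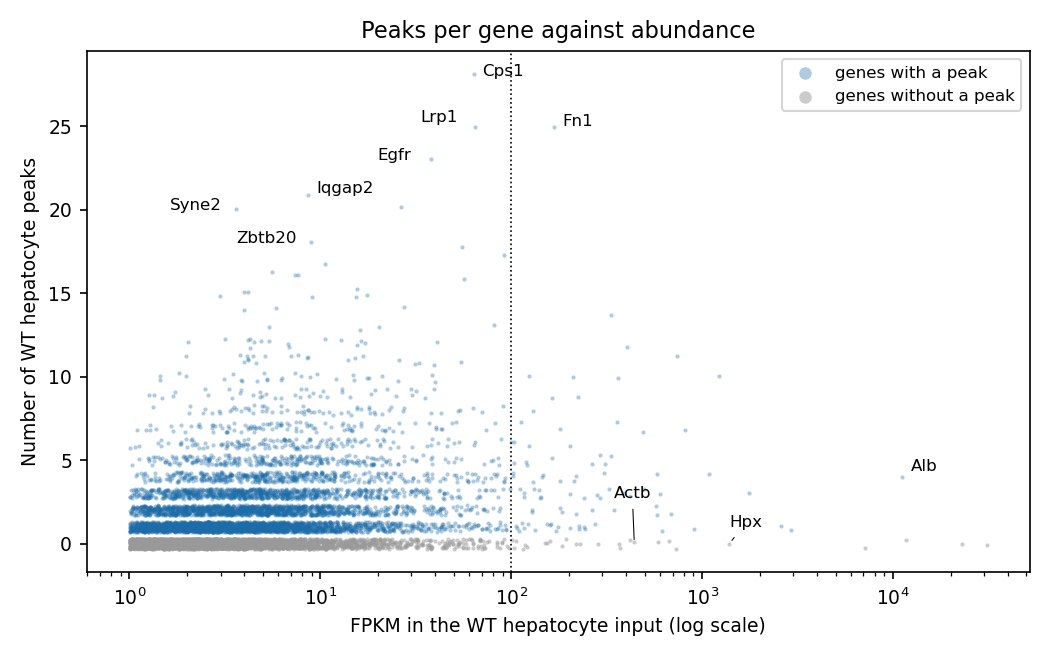
Number of WT hepatocyte peaks in each gene against its FPKM in the WT hepatocyte input (log axis), genes with a peak in blue and genes without in grey, with a small random vertical offset so that points separate. The dotted line marks 100 FPKM, to the right of which 88 genes had a peak and 26 did not; the genes with the most peaks, such as Cps1 with 28, lie between about 3.63 FPKM (Syne2) and 168 FPKM (Fn1).

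The 3 most abundant transcripts with a peak had 1 to 4 of them. Alb, the main plasma protein, had 4 peaks at 11189 FPKM with a strongest enrichment of 8.93-fold. Apoe, the lipoprotein ligand, had 1 peak at 2930 FPKM (7.44-fold), and Trf, transferrin, had 1 at 2598 FPKM (4.14-fold). These 3 were below the median enrichment of all peaks (28.5-fold). So were the next in abundance, Ahsg, with 3 peaks at 1753 FPKM (strongest 10.3-fold), and Gc, with 7 at 810 FPKM (5.51-fold). Others less abundant than Ahsg were above the median. C3, the central complement component, had 10 peaks at 1220 FPKM (strongest 103-fold) and Serpina3k 4 at 1091 FPKM (50.3-fold). Apoa1 had 1 at 904 FPKM (241-fold) and Pzp 11 at 740 FPKM (43.0-fold). Peaks per kilobase of mRNA were ranked among genes at 5 FPKM or more with an annotated transcript. The highest counts there were 6.24 peaks in Sod1, the cytosolic superoxide dismutase (63.2 FPKM), and 5.90 in Ass1 of the urea cycle (124 FPKM). Cfhr2 had 5.59 (30.3 FPKM) and Fabp1, the fatty acid binding protein of liver, 5.42 (202 FPKM).

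At the other end, 100 genes (1.06% of 9442) had 10 or more peaks and held 1265 peaks, 8.45% of the total. None of them was in the lowest expression decile and 32 were in the highest. Cps1, which makes carbamoyl phosphate for the urea cycle, had the most, 28 peaks at 63.5 FPKM, 26 of them in coding sequence. Fn1, the matrix protein fibronectin, had 25 peaks at 168 FPKM, and Lrp1, an endocytic receptor, had 25 at 64.5 FPKM. Egfr, the epidermal growth factor receptor, had 23 at 38 FPKM, 4 of them in the 3′ UTR. These were all transcripts of many exons, from 28 in Egfr to 89 in Lrp1. The scaffold gene Iqgap2 (21 peaks, 8.63 FPKM), the cytoskeletal linkers Macf1 (20 peaks, 26.4 FPKM) and Syne2 (20 peaks, 3.63 FPKM), the bile canalicular exporters Abcc2 (18 peaks, 55.3 FPKM) and Abcb11 (16 peaks, 7.66 FPKM) and the transcription factor Zbtb20 (18 peaks, 8.94 FPKM) followed. Col18a1 (17 peaks), the ubiquitin ligase Ubr4 (17), the clotting factor F5 (16) and the histone methyltransferase Kmt2d (16) came next. The 100 genes had a median mRNA length of 7884 bases and a median of 34.5 exons, against 3088 bases and 9 exons for all 9442 genes.

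Since peaks were cut at exon borders, peaks of a gene within 100 bases along the transcript were joined. That gave 12812 stretches from 14965 peaks, and 23 genes instead of 100 kept 10 or more. The 28 peaks of Cps1 became 5 stretches, the 25 of Fn1 became 13 and the 23 of Egfr became 7, whereas Lrp1 kept 20 of 25, Macf1 15 of 20, Kmt2d 15 of 16 and Zbtb20 18 of 18. Zbtb20 differs from the others in having 13 of its peaks in the 3′ UTR, within a last exon of 24280 bases. Cps1 thus carried a few long enriched stretches of coding sequence, and Lrp1, Macf1 and Zbtb20 many separate ones.

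Genes central to the study were among those with several peaks. Gys2, the glycogen synthase of liver, had 3 peaks in the WT list, with a strongest of 131-fold, against 1 in the cKO list, and stood at 8.69 FPKM in the WT input against 38.6 FPKM in the cKO input. Fasn, which makes palmitate, had 11 peaks in the WT list against 0 in the cKO list, at 4.20 against 54.6 FPKM. Mlxipl, a carbohydrate-responsive transcription factor, had 5 against 1 at 18.9 against 102 FPKM, and Egfr 23 against 2 at 38 against 183 FPKM. All 4 thus had more peaks in the list labelled WT and a lower abundance in the input labelled WT. The paper names these 4 among genes with m6A peak loss and lower expression in cKO hepatocytes and liver. For Gys2 it also reports less mRNA and protein in cKO liver. The peak counts here go the same way as the paper, and the hepatocyte FPKM go the opposite way. The paper drew its candidates in part from hepatocyte m6A and RNA sequencing of this same series. The values here are thus no independent comparison with it. Igf2bp2, an m6A reader, was under the minimum at 0.629 FPKM and had no peak.

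Lists of liver metabolism had peaks in most of their genes. All 32 measured genes of the cytochrome P450 list, which oxidise steroids, fatty acids and drugs, had a peak (100%, 89.3 to 100), with 132 peaks in all, against 72.3% of all genes weighted to the same expression deciles. Cyp2e1 had 5 peaks at 311 FPKM, Cyp3a11 5 at 293 FPKM and Cyp2c29 2 at 87.5 FPKM. In urea cycle and amino acid breakdown 32 of 34 genes had a peak (94.1%, 80.9 to 98.4; 73.5% in the same deciles), among them Ass1 with 10, Hpd with 4, Mat1a with 3 and Gnmt with 1, and Bckdha (15.2 FPKM) and Nags (3.07 FPKM) had none. In fatty acid and triglyceride synthesis it was 19 of 20 (95%, 76.4 to 99.1; 70.1%), and Dgat1 at 6.35 FPKM was the one without. At the same length and expression all genes had 77.3%, which lies within that interval. Lpin1, a phosphatidate phosphatase, had 15 peaks at 4.16 FPKM, and Lpin2 had 11 at 54.2 FPKM. Bile acid synthesis and transport had 20 of 22 (90.9%; 67.9%), including Abcc2, Slco1b2 (7 peaks, 40.2 FPKM) and Abcc3 (10 peaks, 25.4 FPKM). Cholesterol synthesis and uptake had 21 of 24 (87.5%, 69.0 to 95.7; 67.6% in the same deciles, 70.0% at the same length and expression). Each of these lists had a lower median in the WT input than in the cKO input, for example 24.9 against 88.1 FPKM for cytochrome P450. Of all 2549 genes at least 2-fold lower in the WT input, 80.1% had a WT peak, and 91.7% of those in the highest decile. How far this enters the shares of the lists was not tested.

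Glycogen and glucose handling was less complete, with 21 of 27 genes (77.8%, 59.2 to 89.4; 68.3% in the same deciles). G6pc, which releases free glucose, had 5 peaks at 27.4 FPKM. No peak was listed in Gpi1 (18 FPKM), Pygl, the liver glycogen phosphorylase (13.7 FPKM), Pgm1 (4.02 FPKM) or Phkg2 (3.14 FPKM). In the pair of enzymes that extend and shorten glycogen chains, Gys2 thus had peaks and Pygl none.

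Secreted proteins had peaks at high rates, and the exceptions ranged from Orm2 at 3.39 FPKM to Hpx at 1388 FPKM. Plasma carriers and protease inhibitors had 26 of 28 genes with a peak (92.9%), with Hpx and Orm2 as the 2 without. Coagulation and fibrinolysis had 21 of 24 (87.5%), without peaks in Vtn, F2 and Serpinf2. Complement had 18 of 21 (85.7%) and the apolipoproteins 15 of 18 (83.3%), in which Apoc3, Apoc4 and Pltp had none. Of these 4 lists the interval left out the same-decile share (73.2% for plasma carriers, 74.1%, 74.4% and 74.4% for the others) only for the plasma carriers.

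Cytosolic ribosomal proteins stood lowest among the large lists. A peak was listed in 39 of 79 genes (49.4%, 38.6 to 60.2), against 74.0% in the same expression deciles and 60.4% of all genes weighted to the same length and expression classes; their median mRNA was 937 bases and their median abundance 44.3 FPKM. The most abundant without a peak were Rplp1, Rps29, Rps15 (97.4 FPKM) and Rps2 (91.7 FPKM), and abundant ones with a peak were Rpl13a (116 FPKM, 1 peak), Rplp0 (87.4 FPKM, 1 peak) and Fau (85.9 FPKM, 2 peaks). Mitochondrial ribosomal proteins had a peak in 38 of 72 genes (52.8%) and nuclear-encoded respiratory chain subunits in 52 of 74 (70.3%). Both of these lists are also of short mRNAs. Beside them stood 63.4% in the same deciles and 49.7% at the same length and expression for mitochondrial ribosomal proteins, and 72.7% and 59.2% for respiratory chain subunits.

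Regulatory genes of modest abundance were often marked. Chromatin and histone modifiers had a peak in 57 of 62 genes (91.9%, 82.5 to 96.5; 67.1% in the same deciles, 80.1% at the same length and expression), with 296 peaks and 9 genes with 10 or more. Kmt2d led, followed by the remodeller Smarca2 (13 peaks, 16.1 FPKM) and the histone methyltransferase Nsd1 (12 peaks, 4.88 FPKM). Kdm6b (8.67 FPKM), Hdac1 (8.04 FPKM), Hdac5 (6.11 FPKM), Kdm3a (3.41 FPKM) and Hdac2 (2.43 FPKM) were the 5 without. Hepatocyte transcription factors and nuclear receptors had 29 of 32 (90.6%, 75.8 to 96.8; 66.0% in the same deciles, 68.3% at the same length and expression). In the m6A machinery itself 14 of 15 genes had a peak (93.3%, 70.2 to 98.8; 67.9% in the same deciles, 72.1% at the same length and expression), Mettl3 being the exception; Zc3h13, a subunit of the writer complex, had 12 peaks at 2.03 FPKM, the nuclear reader Ythdc1 had 5 at 6.65 FPKM, and Wtap had 4 at 5.44 FPKM. Immediate early and stress genes had 23 of 35 (65.7%, 49.2 to 79.2; 72.9% in the same deciles), with 1 peak in Dusp1 (176 FPKM) and in Jun (105 FPKM), and none in Fos, Zfp36, Junb (87.4 FPKM) or Sgk1 (83.8 FPKM).

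**Figure D4:**
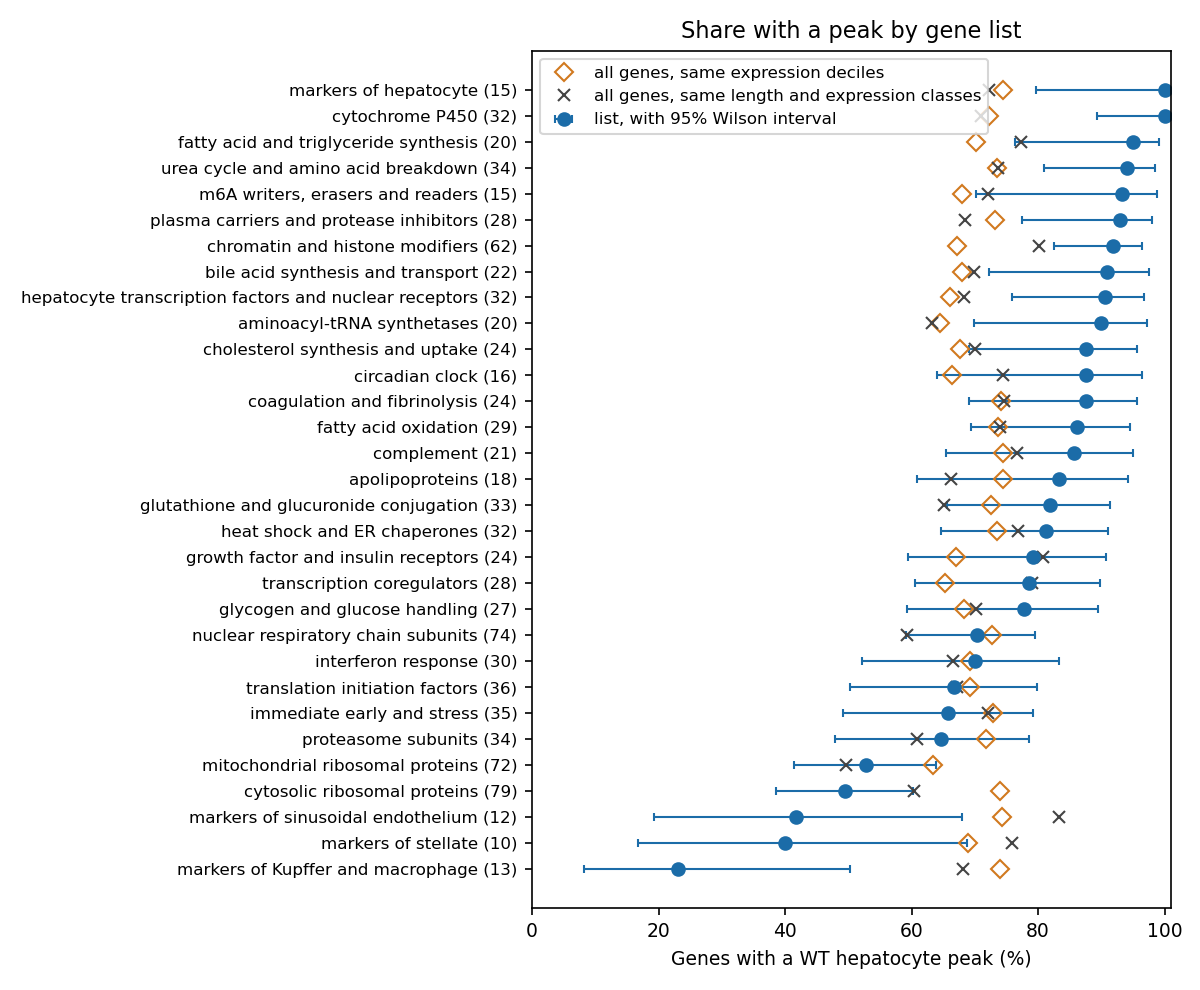
Percentage of genes with a WT hepatocyte peak in each list of 10 or more genes at 1 FPKM or more (number of genes in brackets), with 95% Wilson bars, beside the percentage in all genes weighted to the same expression deciles (diamonds) or the same length and expression classes (crosses). Cytochrome P450 genes stand at 100%, cytosolic ribosomal proteins at 49.4% and Kupffer and macrophage markers at 23.1%.

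The biological process terms of the deposited table covered more genes. Of 8086 genes with a term 65.0% had a peak, and in the 162 terms of 30 or more genes the share had a median of 66.7% and ran from 38.3% to 88.2%. At the top stood response to endoplasmic reticulum stress (30 of 34 genes, 88.2%), response to unfolded protein (87.1%), regulation of growth (86.7%), Golgi organization (84.3%), steroid metabolic process (84.2%) and protein deubiquitination (83.3%). Chromatin modification, a larger term, had 135 of 163 genes (82.8%, 76.3 to 87.8; 63.4% in the same deciles), and ubiquitin-dependent protein catabolic process had 81 of 99 (81.8%). Protein processing (82.4%) and post-embryonic development (81.8%) completed the first 10. The lowest was nucleosome assembly with 23 of 60 (38.3%, 27.1 to 51.0; 68.5%), a term of histone genes, many of them near copies. Chemotaxis (42.9%), DNA recombination (45.2%), immune response (25 of 55, 45.5%), visual perception (50.0%), positive regulation of defense response to virus by host (50.0%), cell adhesion (80 of 158, 50.6%), rRNA processing (51.0%), adaptive immune response (51.4%) and inflammatory response (52.0%) followed. Genes belong to several terms, so these shares are not independent of each other. Regulation of transcription, DNA-templated, had 617 of 832 genes (74.2%, 71.1 to 77.0; 62.6%). Terms of lipid metabolism stood nearer the middle, with 198 of 277 genes in lipid metabolic process (71.5%; 67.2% in the same deciles) and 24 of 40 in fatty acid biosynthetic process (60.0%; 66.7%), below the 95% of the list of fatty acid and triglyceride synthesis. Translation had 151 of 251 (60.2%; 67.2% in the same deciles, 59.6% at the same length and expression).

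Markers of liver cell types were read in both hepatocyte pairs. Markers of hepatocytes had a WT peak in 15 of 15 genes (74.4% in the same deciles) and a cKO peak in 5. Their median was 311 FPKM in the WT input, against 701 FPKM in the cKO input. Kupffer and macrophage markers had a peak in 3 of 13 genes (23.1%, 8.18 to 50.3) at a median of 42.7 FPKM in the WT input, although the same deciles had 73.9%. In the cKO list 12 of these 13 genes had a peak, at a median of 1.25 FPKM in the cKO input. For example, Marco had 0 peaks in the WT list and 5 in the cKO list, and C1qa 0 and 3. Sinusoidal endothelium markers had a WT peak in 5 of 12 genes (74.3% in the same deciles) and a cKO peak in 11, with median abundances of 22.1 FPKM in the WT input and 2.91 FPKM in the cKO input, and stellate markers in 4 (68.9% in the same deciles) and 10 of 10 genes, with 8.27 and 0.903 FPKM. None of the 5 lymphocyte and 3 neutrophil markers at the minimum had a WT peak (57.4% and 69.7% in the same deciles). A cKO peak was listed in 2 of the lymphocyte and 2 of the neutrophil markers. The markers that are rich in the input labelled WT thus had few peaks in the IP list labelled WT and many in the list labelled cKO, which is the reverse of Gys2, Fasn, Mlxipl and Egfr, lower in the input labelled WT and with more peaks in its IP list. Each list was also called over its own input, so peaks and abundance are not independent. With 1 library of each, cell make-up, genotype and labelling cannot be told apart. In bulk RNA, fewer cells of a type and less RNA per cell cannot be told apart either.

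The same arrangement ran through the whole table. Each peak list was called over the input of its own label, so the shares below are not independent of the input classes. Of 2083 genes at least 2-fold higher in the WT input than in the cKO input, 31.2% had a WT peak (29.3 to 33.2) and 66.0% a cKO peak, against 65.6% of all 9442 genes with a cKO peak. Of 4810 genes less than 2-fold apart it was 69.3% (68.0 to 70.6) and 69.0%, and of 2549 genes at least 2-fold lower in the WT input 80.1% (78.5 to 81.6) and 58.7%. In the highest expression decile the WT share was 34.9% in the first of these classes, 76.0% in the second and 91.7% in the third. Among the genes less than 2-fold apart, where the choice of input matters least, the share with a WT peak still went from 50.3% in their lowest decile to 75.9% in their highest.

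**Figure D5:**
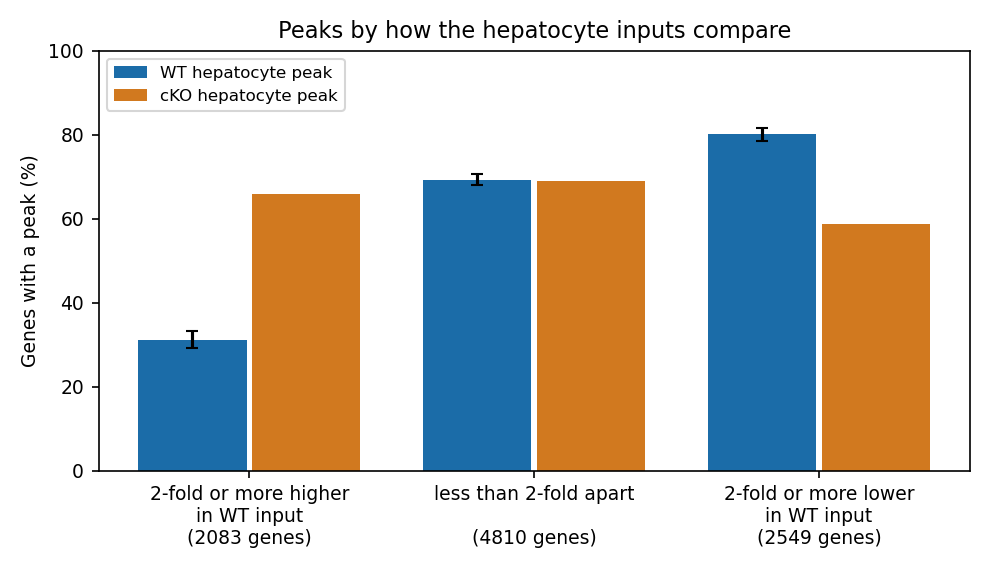
Percentage of genes with a WT hepatocyte peak (blue, with 95% Wilson bars) and with a cKO hepatocyte peak (orange) in genes at 1 FPKM or more in the WT input, by how the WT and cKO hepatocyte inputs compare. WT peaks go from 31.2% of genes higher in the WT input to 80.1% of genes lower in it, and cKO peaks from 66.0% to 58.7%.

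Against other measures of abundance the relation of the WT peaks was steeper. With deciles of the cKO hepatocyte input the share with a WT peak went from 46.4% to 84.3% (rho 0.333), and with the inputs of WT liver replicates 2 and 3 from 39.7% to 83.5% and from 38.8% to 82.8%. In genes at 1 FPKM or more in the WT input, genes with a WT peak had a median of 6.01 FPKM in the cKO input and genes without one 2.09 FPKM, a ratio of 2.88. How far the mixture of cells in each preparation enters these differences was not tested. The WT liver IP libraries gave peaks in 14.4% and 5.51% of genes at 1 FPKM or more in their own inputs, against 63.8% in WT hepatocytes and, with its own input, 64.6% in cKO hepatocytes. Over deciles of its own input the cKO hepatocyte share was 55.8% in the lowest, 71.5% in the fifth and 47.5% in the highest (rho -0.0132). Between lowest and highest decile, WT liver replicate 2 went from 11.9% to 10.8% and replicate 3 from 5.79% to 6.81%. The cKO hepatocyte share thus also rose from the lowest to the fifth decile, and fell after it. Among these pairs, only the WT hepatocyte share was highest in its highest decile.

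Peaks also fell in genes under the minimum. Of 13039 genes below 1 FPKM, 1276 (9.79%) had a WT peak, 17.5% of the peak genes matched to the table, and 887 of these had 1 peak. Neb, which encodes the giant muscle protein nebulin, had 37 peaks at 0.959 FPKM in the WT input against 6.17 FPKM in the cKO input. Col27a1, a collagen, had 9 peaks at 0.737 FPKM in the WT input against 11.4 FPKM in the cKO input. Other such values were estimates near 0, as for Sltm (11 peaks, 0.00322 FPKM) and Trak1 (8 peaks, 0.000108 FPKM), which had 1.92 and 3.55 FPKM in the cKO input, and 195 peak genes were listed at 0. In the cKO input 524 of the 1276 genes reached 1 FPKM.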

How the data were processed

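m6A RNA immunoprecipitation sequencing was done on WT hepatocytes (1 IP, 1 input). Per the labels and methods, the authors trimmed reads with cutadapt 1.9.3, aligned them to mm10 with HISAT2 2.0.4, called peaks with MACS and kept those overlapping mRNA exons; labels and methods name different antibody and library kits. The deposited peak list gives a fold enrichment (ratio of IP to input), a score (minus log10 of p, multiplied by 10, lowest 40.1) and a false discovery rate in percent (highest 7.52) for each peak. The deposited abundances are FPKM from Cufflinks, and the authors' scaled fragment signal served to estimate depth. Strand use in counting is not stated, so genes overlapping on opposite strands cannot be told apart.

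Peaks were joined to genes by symbol, FPKM summed over entries of a symbol (79 symbols had several), and genes at 1 FPKM or more divided into 10 deciles. Lengths, exons and GGAC came from the longest coding transcript in GENCODE M21 (GRCm38; 98.8% of genes matched). Peak starts were taken as counted from 0, since start plus 1 met exon starts. Same-decile shares weight all genes to a list's deciles. No process term was used here for 1356 of the genes. Scripts (Python 3.11.15, pandas 2.3.3) were tested on simulated data. Genes named are the 15 most abundant nuclear genes without a peak, the 15 with the most peaks, the 10 strongest peaks, the 10 highest and lowest terms, up to 4 members of a list with and without a peak by abundance, and genes central to the study; others were named after their values were seen, and some that the rule picks are not reported here. Members and lists were chosen with earlier results of these data known. The alternatives were other FPKM minimums, inputs, peak thresholds and gene assignments. Columns of the authors' own comparisons were not used.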

Additional observations from a re-analysis of the deposited data

Results flagged for a closer look

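The list of WT hepatocyte peaks held 288 peaks under 149 gene names that the input table does not list, and these entered no comparison. They stand out because they are signal outside the measurements compared, above what a count of 0 allows. Matching by Entrez gene number, chosen after seeing the data, resolved 1 of these names with 1 peak.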

How the results depend on the processing

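No paired analysis was possible because there was 1 IP and 1 input library of WT hepatocytes, and for the same reason no replicate could be left out. Over 6 results and 14 alternatives, 52 values stayed within the interval of the reported value or within 1.5 times of it, and 32 moved. Some of the 52 could not move, so their number does not measure stability. Joining neighbouring peaks can change only the count of genes with 10 or more peaks. The FPKM minimums tried cannot change the number of genes at 100 FPKM or more without a peak. Only the ratio of medians has a direction that could change, and it was lowest at 1.03, with a minimum of 10 FPKM. The share of genes with a peak was 63.8% as reported. It was 52.9%, 72.6% and 73.8% at a minimum of 0.1, 5 and 10 FPKM, 69.2% with the cKO hepatocyte input, 62.1% with a score of at least 100, 51.1% with at least 20-fold enrichment and 64.8% with genes assigned by exon overlap. The lowest decile (46.0%) moved to 16.4%, 72.3% and 74.4% at these minimums and to 40.5% at 20-fold. The highest (74.4%) moved to 84.3% with the cKO input, 78.0% at 10 FPKM, 70.5% at a score of at least 100 and 42.2% at 20-fold. Genes at 100 FPKM or more without a peak (26) numbered 71 at 20-fold and 39 with the cKO input. Genes with 10 or more peaks (100) numbered 46 at a minimum of 10 FPKM, 28 at 20-fold and 23 after joining neighbouring peaks. The ratio of medians (1.5) was 2.91 at a minimum of 0.1 FPKM. Further choices were made after seeing the data. In genes less than 2-fold apart between the inputs the share was 69.3%, the lowest decile 50.3%, the abundant genes without a peak 13 and the genes with 10 or more peaks 52. With the inputs of WT liver replicates 2 and 3 the share was 65.7% and 65.3%, the lowest decile 39.7% and 38.8%, the highest 83.5% and 82.8%, and the abundant genes without a peak 59 and 65. Matching names also by gene number moved none of these. The cause of these shifts was not tested. About 14 estimated fragments stand behind a gene at 1 FPKM, so the lack of a peak at low abundance is not evidence of unmodified mRNA.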

Other observations

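In receptors for growth factors, cytokines and insulin, 19 of 24 genes at 1 FPKM or more had a WT hepatocyte peak (79.2%, 59.5 to 90.8; 67.0% in the same expression deciles, 80.7% at the same length and expression). After Egfr, the leukaemia inhibitory factor receptor Lifr had 11 peaks at 25.8 FPKM, the shared cytokine receptor subunit Il6st had 6 at 25.5 FPKM, and the growth hormone receptor Ghr had 4 at 30.1 FPKM. No peak was listed in Tgfbr2 (5.87 FPKM), Bmpr2 (5.20 FPKM), Fgfr2 (4.96 FPKM) or Igf1r (2.02 FPKM). Fatty acid oxidation had 25 of 29 genes with a peak (86.2%, 69.4 to 94.5; 73.6% in the same deciles), including the fatty acid transporter Slc27a2 with 8 at 90.4 FPKM. Pdk4 (16.8 FPKM), Acads (14.1 FPKM) and Cpt2 (6.34 FPKM) were among those with none.

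Translation and protein quality genes were split. Aminoacyl-tRNA synthetases, which load amino acids on tRNA, had a peak in 18 of 20 genes (90.0%, 69.9 to 97.2; 64.5% in the same deciles), with Vars (7.06 FPKM) and Mars (4.17 FPKM) as the exceptions. Translation initiation factors had 24 of 36 (66.7%, 50.3 to 79.8; 69.3%): the scaffold gene Eif4g1 had 10 peaks at 17.5 FPKM, the strongest of 931-fold, while Eif4a2 (58.2 FPKM) and Eif5a (33.9 FPKM) had none. Heat shock and endoplasmic reticulum chaperones had 26 of 32 (81.2%, 64.7 to 91.1; 73.5%), with 1 peak in Hspa5 at 275 FPKM and 1 in Hspa8 at 227 FPKM, and none in Hspa1b (68.3 FPKM) or Hspa1a (22.6 FPKM), near copies whose reads can be split. Proteasome subunits had 22 of 34 (64.7%; 71.8%), with 4 peaks in Psmd3 at 13.2 FPKM and none in Psmb6 at 18.9 FPKM. Circadian clock genes had 14 of 16 (87.5%; 66.4% in the same deciles, 74.4% at the same length and expression). Transcription coregulators had 22 of 28 (78.6%; 65.2% and 79.1%), with 15 peaks in the corepressor gene Ncor1, glutathione and glucuronide conjugation 27 of 33 (81.8%; 72.5% and 65.1%), and interferon response genes 21 of 30 (70.0%; 69.2% and 66.6%).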
